A study of Mus musculus with 8 samples.

Results

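The genes described here are those whose symbols belong to interferon-response and antigen-presentation families, and 82 of the 11784 genes listed for these livers met that symbol rule. The rule uses symbols and no measured value, although it was set with earlier results of these data known. Of them, 50 are interferon genes (the Ifit, Ifi, Ifitm, Oas, Isg15, Usp18, Stat, Irf, Gbp and Irg genes) and 32 have antigen-presentation symbols (the H2 genes, B2m, Cd74, the Tap genes, Tapbp and the immunoproteasome subunits). RNA-seq was performed on whole liver of 8 male C57BL/6J mice, 4 fed a Control diet and 4 fed a Low AA diet. In the Low AA diet, a smaller share of calories came from amino acids and a larger share from carbohydrate, with fat nearly unchanged. The separate parts of amino acids and carbohydrate in the differences between diets were not tested. Both groups ate amino acid-defined diets from 9 weeks of age for 4 months and were fasted overnight for 16 hours before tissue was taken. No transgene, deletion or drug was part of either group, and each library came from 1 mouse.

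Interferons are secreted proteins, types I and III being released mainly by cells that sense foreign nucleic acid. Their receptors activate JAK kinases, which phosphorylate STAT proteins, and these enter the nucleus, with Irf9 in the type I response, to switch on a shared set of antiviral genes. Interferon also raises MHC class I antigen presentation, in which the immunoproteasome cuts cytosolic proteins to peptides, the Tap transporter carries them into the endoplasmic reticulum, and a heavy chain paired with B2m displays them at the cell surface. MHC class II molecules are instead carried mainly by macrophages, dendritic cells and B cells, and in liver hepatocytes and Kupffer cells both respond to interferon. None of the genes for type I, II or III interferons themselves was among the genes listed.

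Many interferon genes carry short response elements upstream of their start. An interferon-stimulated response element was searched for as 2 copies of GAAA with any 2 bases between them (TTTC in place of GAAA when read on the other strand), and a STAT site as TTCNNNGAA, which reads the same on both strands, in the window from 250 bases before to 50 bases after each RefSeq gene start (GRCm38.p6). A window was found for 57 of the 82 genes. The first motif was present for 21 of 35 interferon genes (60.0%) and for 3 of 22 antigen-presentation genes (13.6%), against 3.99% of the 27025 genes in the promoter table. The STAT letters were present for 11 of the 35 interferon genes (31.4%) and 2 of the 22 antigen-presentation genes (9.09%), against 9.55% of all genes. A match is a match of letters only. The stretches below come from genes whose levels are described later, and the capitals mark the motif letters, overlapping matches being joined.

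Isg15: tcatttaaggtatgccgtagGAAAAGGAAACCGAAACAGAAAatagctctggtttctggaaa
Ifit1: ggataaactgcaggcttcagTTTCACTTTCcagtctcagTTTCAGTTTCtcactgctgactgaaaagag
Ifit3: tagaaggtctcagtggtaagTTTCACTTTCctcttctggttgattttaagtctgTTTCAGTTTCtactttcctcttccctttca
Oas1a: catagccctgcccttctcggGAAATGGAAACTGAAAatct
Oas1g: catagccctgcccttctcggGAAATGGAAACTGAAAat
Igtp: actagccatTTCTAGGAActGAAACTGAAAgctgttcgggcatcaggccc
Irgm2: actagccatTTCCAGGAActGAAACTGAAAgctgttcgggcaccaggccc
B2m: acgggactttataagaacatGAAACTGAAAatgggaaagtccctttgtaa

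These lie at chr4:156200855-156200916 on the minus strand (Isg15), chr19:34640765-34640833 (Ifit1) and chr19:34583353-34583436 (Ifit3), both on the plus strand. The Oas1a stretch is at chr5:120907526-120907565 and the Oas1g stretch at chr5:120887614-120887651, both on the minus strand. Igtp (chr11:58199502-58199551), Irgm2 (chr11:58214893-58214942) and B2m (chr2:122147528-122147577) are on the plus strand. All of the stretches are upstream of the RefSeq start of their gene and outside annotated exons. The Irgm2 stretch lies inside the longer GENCODE M21 model of that gene (chr11:58199618-58222782). Isg15 held 3 overlapping copies of the first motif, and the 2 copies in Ifit1 and in Ifit3 were separated by other bases. The Oas1a and Oas1g stretches were identical over 38 of 38 compared bases, and Igtp and Irgm2 over 48 of 50, with both motifs in each of the latter pair. The class II genes with a window (5) had no match to either set of letters.

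The libraries were of similar size. Their summed values, which are taken to be scaled and rounded read counts, ran from 27876664 to 30799385 per mouse, and the median gene value was 433 to 449. Liver identity was clear from 9 of 10 hepatocyte markers, which summed to 2310888 to 2636102 in Control mice and 2521096 to 2750060 in Low AA mice. Control mouse F2212 stood apart: its acute phase genes (12 of 12 listed) summed to 532649, where its 3 diet mates had 252062 to 293645, and Cela1, the only exocrine pancreas marker listed of 10, had a value of 36587 against 130 to 178. Low AA mouse H828 had the lowest acute phase sum, 243526. Of the acute phase genes, 8 of 12 had a log2 fold change below 0, and none was called. Orm1 (-2.06, limma adjusted p = 0.0908) and Saa1 (-3.49, limma adjusted p = 0.261) were lower in Low AA liver without overlap between diets, 2 of 12 genes against 3.55% of all genes. The other 4 were above 0, among them Apcs (1.03, limma adjusted p = 0.192) and Il1rn (0.48), both with overlap. The medians and counts of the main gene groups are therefore given with and without these mice.

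Diet was compared by limma on log2(value + 1) over all 11784 genes, and a gene was called at a Benjamini-Hochberg adjusted p under 0.05. Only H2-Q1, a non-classical class I heavy chain gene, was called, which is 1 of 82 genes against 0.297% of all genes called lower and 0.399% called in either direction. At an adjusted p under 0.1 it was still the 1 gene of the 82, against 0.764% of all genes called lower at that threshold. Of the 82 genes, 68 had a log2 fold change (Low AA minus Control) below 0, against 49.5% of all genes. An unadjusted p under 0.05 with lower values in Low AA liver was reached by 27 of the 82, against 6.7% of all genes, and none of the 82 reached it with higher values, against 5.13%. The values of the 2 diets did not overlap for 7 genes, all lower in Low AA liver, against 3.55% of all genes lower without overlap and 3.26% higher without overlap. Without both F2212 and H828, 7 of the 82 were lower without overlap, against 8.51% of all genes, and 9 were higher without overlap, against 9.43%. The median log2 fold change was -0.29 for the 82 genes and 0.00 for all genes. In whole liver, fewer cells of a type and less RNA per cell cannot be told apart.

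**Figure D1:**
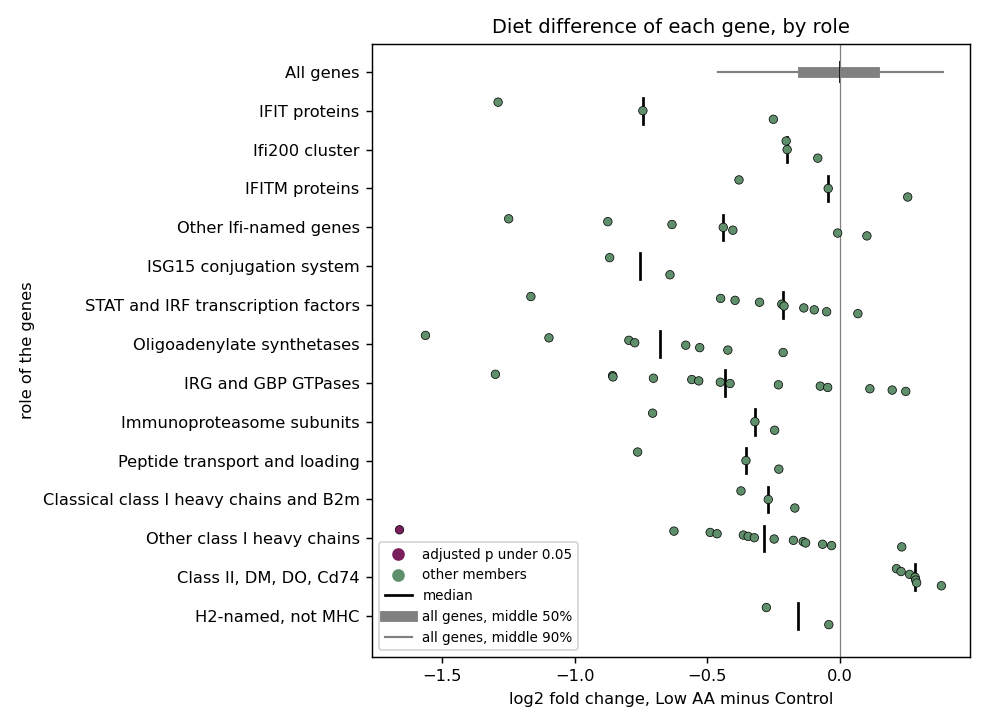
Log2 fold change (Low AA minus Control, limma on log2(value + 1), n = 4 mice per diet) of each of the 82 genes, grouped by role on the vertical axis, with the spread of all genes in the top row. Each point is 1 gene, vertical lines are medians and the purple point is H2-Q1, the gene with an adjusted p under 0.05; most points lie below 0 and all class II points lie above it.

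Among the 50 interferon genes, 44 had a log2 fold change below 0 and the median was -0.41. None was called by limma, while 20 of the 50 had an unadjusted p under 0.05 with lower values, against 6.7% of all genes. The values of 4 did not overlap between diets, all lower in Low AA liver, against 3.55% of all genes. These 4 were Oasl1, Oas1a, Ifi27l1 and Ifi35. Without both F2212 and H828, 4 of the 50 were lower without overlap, against 8.51% of all genes.

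The oligoadenylate synthetases make the short adenylate chains that activate RNase L to cut viral RNA, and Oasl1 is a relative without that enzyme activity. All 8 of the Oas genes had a log2 fold change below 0, with a median of -0.68. Of the 8, 5 had an unadjusted p under 0.05 with lower values, against 6.7% of all genes. Oasl1 values were 233, 44, 88 and 147 in Low AA mice and 257, 372, 424 and 258 in Control mice. The highest Low AA mouse lay just under the lowest Control mouse, and the log2 fold change was -1.56 (SE 0.43, limma adjusted p = 0.163). Oas1a values were 116, 69, 116 and 97 in Low AA mice and 185, 229, 133 and 139 in Control mice. The groups again did not overlap, and the log2 fold change was -0.77 (SE 0.22, limma adjusted p = 0.188).

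Reads of near-identical Oas1 copies can be assigned to either copy. Oas1g was lower by 0.80 on the log2 scale (limma adjusted p = 0.261), and the summed value of Oas1a and Oas1g was 131 ± 29.8 in Low AA and 227 ± 51.4 in Control liver (SD, n = 4 each, exact two-sided permutation p = 0.0286, the smallest that 4 against 4 allows). Oas1c had values of 15, 12, 15 and 23 in Low AA and 36, 45, 23 and 40 in Control liver, which met at 23. Its log2 fold change was -1.10 with a limma adjusted p of 0.149. Oasl2 (-0.58, limma adjusted p = 0.315), Oas3 (-0.53), Oas1b (-0.42) and Oas2 (-0.21) had smaller differences in the same direction.

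The IFIT proteins bind viral RNA that lacks the host cap marks. Ifit1 values were 351, 60, 140 and 219 in Low AA mice and 400, 477, 421 and 293 in Control mice. The Low AA mouse with 351 exceeded the lowest Control mouse, and the log2 fold change was -1.29 (SE 0.44, limma adjusted p = 0.266). Ifit3 values were 522, 134, 271 and 270 against 519, 654, 411 and 290. Here Low AA mouse H1126 exceeded 3 of the 4 Control mice, and the log2 fold change was -0.74 (limma adjusted p = 0.482). Without H828 the log2 fold change was -0.82 for Ifit1 and -0.41 for Ifit3. Ifit2 had a log2 fold change of -0.25.

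Isg15, a ubiquitin-like protein that is conjugated to other proteins, had values of 227, 85, 128 and 160 in Low AA and 324, 363, 228 and 166 in Control liver. Its log2 fold change was -0.87 (SE 0.31, limma adjusted p = 0.300). Usp18, the protease that removes Isg15 and restrains receptor signaling, had values of 528, 218, 335 and 469 against 544, 763, 589 and 439. Its highest Low AA mouse lay within the Control range, and the log2 fold change was -0.64 (limma adjusted p = 0.380), or -0.39 without H828.

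**Figure D2:**
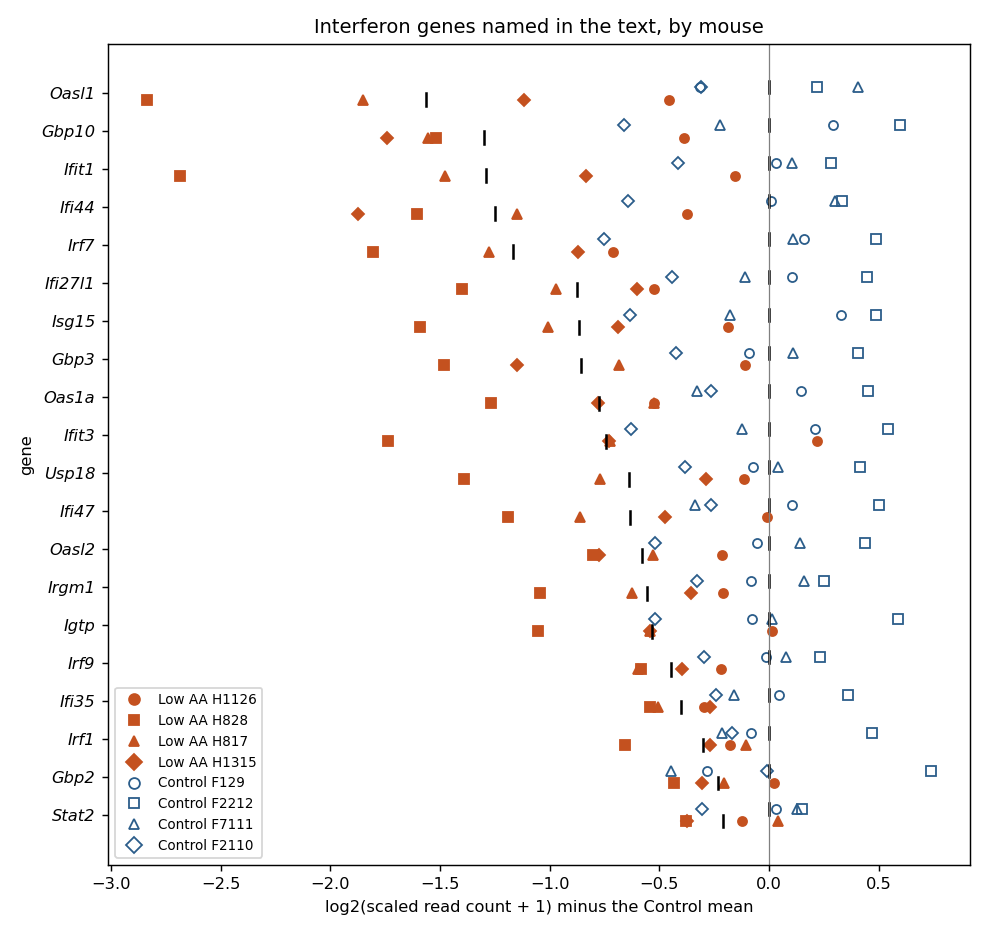
Level of selected interferon genes named in the text (vertical axis) in each mouse, as log2(value + 1) minus the Control mean (horizontal axis). Filled symbols are Low AA mice, open symbols Control mice and short vertical lines the mean of 4 mice; Oasl1, Oas1a, Ifi27l1 and Ifi35 show no overlap between diets, while Ifit1 and Ifit3 overlap.

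Of 10 Stat and Irf genes, 9 had a log2 fold change below 0, with a median of -0.21. An unadjusted p under 0.05 with lower values was reached by 3, against 6.7% of all genes. Irf7, which drives type I interferon transcription and is itself induced by interferon, had values of 756, 353, 510 and 677 in Low AA mice and 1380, 1735, 1334 and 734 in Control mice. A single Control mouse, with 734, lay inside the Low AA range, and the log2 fold change was -1.17 (SE 0.29, limma adjusted p = 0.131).

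Irf9, which joins STAT proteins in the complex formed after type I interferon, had values of 1050, 814, 806 and 928 against 1211, 1433, 1290 and 994. The groups met between 994 and 1050, and the log2 fold change was -0.45 (limma adjusted p = 0.203).

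Stat2 (-0.21), Irf1 (-0.30, limma adjusted p = 0.556) and Irf2 (-0.22), an antagonist of Irf1, had smaller differences, and Irf1 was at -0.18 without H828 and -0.15 without F2212. Irf3, which is activated by the nucleic acid sensors, was at -0.10 and Irf5 at -0.14. Irf8, a factor of myeloid development, was the exception at 0.07.

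Among other Ifi-named genes, 6 of 7 had a log2 fold change below 0. Of the 7, 4 had an unadjusted p under 0.05 with lower values, against 6.7% of all genes. Values of 2 did not overlap, both lower in Low AA liver, against 3.55% of all genes. Ifi27l1 (now named Ifi27), which encodes a small hydrophobic protein, had values of 2123, 1157, 1556 and 2011 in Low AA and 3287, 4165, 2830 and 2249 in Control liver. Every Low AA mouse lay below every Control mouse, and the geometric mean was 54.5% of that in Control liver (log2 fold change -0.88, SE 0.22, limma adjusted p = 0.143). Ifi35 had values of 454, 382, 392 and 462 against 574, 714, 499 and 471. Its groups were separated by a small gap, and the log2 fold change was -0.40 (SE 0.14, limma adjusted p = 0.289).

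Ifi44 had values of 81, 34, 47 and 28 against 106, 133, 130 and 67, and their log2 fold change was -1.25 (SE 0.33, limma adjusted p = 0.156). Only the Low AA mouse with 81 reached the Control range. Ifi47, a GTPase of the Irg family, was at -0.63 (limma adjusted p = 0.377) and Ifi27l2a at -0.44. Ifi27l2b (-0.01) and Ifi30, a lysosomal thiol reductase that helps unfold antigens (0.10), had fold changes near 0.

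The 3 Ifi200 genes, which encode DNA-binding proteins of the AIM2-like family, were all slightly below 0 with a median of -0.20. The 3 Ifitm genes, which encode membrane proteins that hinder virus entry, had mixed signs: Ifitm3 was at -0.38, Ifitm2 at -0.04 and Ifitm1 at 0.26.

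The guanylate-binding proteins and the immunity-related GTPases attack the membranes around intracellular microbes, and many are induced by interferon gamma. Of 14 such genes, 11 had a log2 fold change below 0, with a median of -0.43. An unadjusted p under 0.05 with lower values was reached by 5, against 6.7% of all genes. Gbp10 had values of 91, 41, 40 and 35 against 146, 181, 102 and 75. Low AA mouse H1126 was the only one to reach the Control range, and the log2 fold change was -1.30 (SE 0.34, limma adjusted p = 0.150). Gbp6, whose sequence is close to that of Gbp10, was at -0.70, and the sum of both was 286.5 ± 81.5 in Low AA and 522 ± 195 in Control liver (SD, n = 4 each, exact two-sided permutation p = 0.0571).

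Gbp3 values were 198, 76, 133 and 96 against 201, 284, 231 and 159, and the log2 fold change was -0.86 (limma adjusted p = 0.258). Irgm1, which regulates the other GTPases, had values of 1242, 696, 932 and 1123 against 1358, 1707, 1605 and 1145. In both genes, 1 Low AA mouse reached the Control range, and the Irgm1 log2 fold change was -0.56 (limma adjusted p = 0.266). Irgm2 was at -0.45 and Igtp at -0.53 (limma adjusted p = 0.457), or -0.34 without F2212. Gbp2, whose values ran from 110 to 151 in Low AA mice and were 122, 249, 109 and 148 in Control mice, was at -0.23 (limma adjusted p = 0.779). Its mean difference depended on Control mouse F2212, without which the log2 fold change was 0.01. Gbp1 (0.25), Gbp8 (0.20) and Gbp9 (0.11) were above 0.

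The median log2 fold change was -0.45 over the 21 interferon genes with the response element letters and -0.35 over the 14 without, a difference that was not tested. Irf7, Oasl1 and Ifi44 are among those without a match in the window searched.

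The class I route had the lone called gene. Of its 23 genes, 22 had a log2 fold change below 0, with a median of -0.32. An unadjusted p under 0.05 with lower values was reached by 7, against 6.7% of all genes. That count was 4 without H828, 4 without F2212, 4 without F129 and 12 without F7111. The median was -0.21 without H828, -0.24 without F2212 and -0.12 without both, where 19 of 23 were below 0 and 3 had such a p. The values of H2-Q1, Tapbp and B2m did not overlap between diets, 3 of 23 genes against 3.55% of all genes lower without overlap. Per kilobase of transcript, B2m (36976), H2-Q10 (20060), H2-K1 (19716) and H2-D1 (7261) had high levels in Control liver.

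H2-Q1 (chr17:35320405-35325099) had values of 64, 43, 64 and 53 in Low AA mice and 242, 248, 94 and 174 in Control mice. Every Low AA mouse was below every Control mouse, with means of 56 ± 10.1 and 189.5 ± 72.0 (SD, n = 4 each). The gene fell to 31.6% of its Control level as a ratio of geometric means. The log2 fold change was -1.66 (SE 0.29, limma adjusted p = 0.0468). The call was near the threshold, and it was lost when any mouse other than Control mouse F7111 was left out (limma adjusted p 0.0662 to 0.132), with columns scaled to equal upper quartiles (0.0503) and without the mean-variance trend (0.0699). H2-Q1 reads can be shared with other class I genes of the same cluster.

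Tap1, a subunit of the peptide transporter, had values of 649, 395, 402 and 466 in Low AA and 970, 911, 573 and 789 in Control liver. A single Low AA mouse entered the Control range, and the log2 fold change was -0.76 (SE 0.20, limma adjusted p = 0.147). Psmb9, an immunoproteasome subunit that takes the place of Psmb6, lies beside Tap1 on the opposite strand, and the models of the neighbours overlap by 212 bases. Its values were 211, 188, 216 and 226 against 526, 360, 177 and 412. Control mouse F7111, with 177, was the lowest of all 8, and the log2 fold change was -0.71 (SE 0.28, limma adjusted p = 0.342). Without that mouse Psmb9 was called, with a log2 fold change of -1.02.

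Psmb8 (-0.32, limma adjusted p = 0.585) and Psmb10 (-0.25, limma adjusted p = 0.646), the counterparts of Psmb5 and Psmb7, had smaller differences, at -0.18 for Psmb8 without H828 and -0.08 for Psmb10 without F2212. The constitutive subunits Psmb5 (-0.15), Psmb6 (-0.09) and Psmb7 (-0.18) were below 0 as well. Tapbp, or tapasin, which holds empty class I molecules at the transporter, had values of 1269, 1230, 1240 and 1352 against 1598, 1854, 1529 and 1542. The groups did not overlap, and the log2 fold change was -0.35 (SE 0.10, limma adjusted p = 0.158). Tap2 was at -0.23 (limma adjusted p = 0.499).

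B2m, the light chain shared by class I molecules, had values of 28289, 19959, 25794 and 24910 in Low AA mice and 32480, 33340, 31330 and 30048 in Control mice. The groups did not overlap, and the geometric mean was 77.2% of that in Control liver (log2 fold change -0.37, SE 0.12, limma adjusted p = 0.243). The classical heavy chain H2-K1 had values of 26843, 23335, 29072 and 25850 against 34932, 38009, 26830 and 27912. Its groups overlapped, as did those of H2-D1, with log2 fold changes of -0.27 (limma adjusted p = 0.490) and -0.17 (limma adjusted p = 0.700).

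H2-Q10, which encodes a class I molecule secreted by the liver, had values of 36835, 35834, 40557 and 41597 against 42430, 49055, 33531 and 34745. The Control range was wider and enclosed the Low AA range. The log2 fold change was -0.03 (95% CI -0.34 to 0.27, limma adjusted p = 0.958), and its sign turned when any 1 of 3 mice was left out. H2-T23, which encodes Qa-1, was at -0.17, H2-Q9 at -0.49 and H2-T10 at -0.63. Without F2212, H2-T23 was at -0.09 and H2-D1 at -0.08, and without H828 both were at -0.10, while H2-D1 was at -0.25 without F7111. H2-M3, which presents formylated peptides, was the only class I gene above 0, at 0.23.

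Because reads can be assigned to the wrong copy among class I genes, the 16 heavy chain genes were also summed. The sum was 87827 ± 6943 in Low AA and 98261 ± 16572 in Control liver (SD, n = 4 each), a log2 difference of -0.15 (exact two-sided permutation p = 0.314). The sum of H2-Q6 to H2-Q9 differed by -0.43 (exact two-sided permutation p = 0.114) and that of H2-T9, H2-T10 and H2-T22 by -0.31 (exact two-sided permutation p = 0.143). The values of each sum overlapped between the diets.

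**Figure D3:**
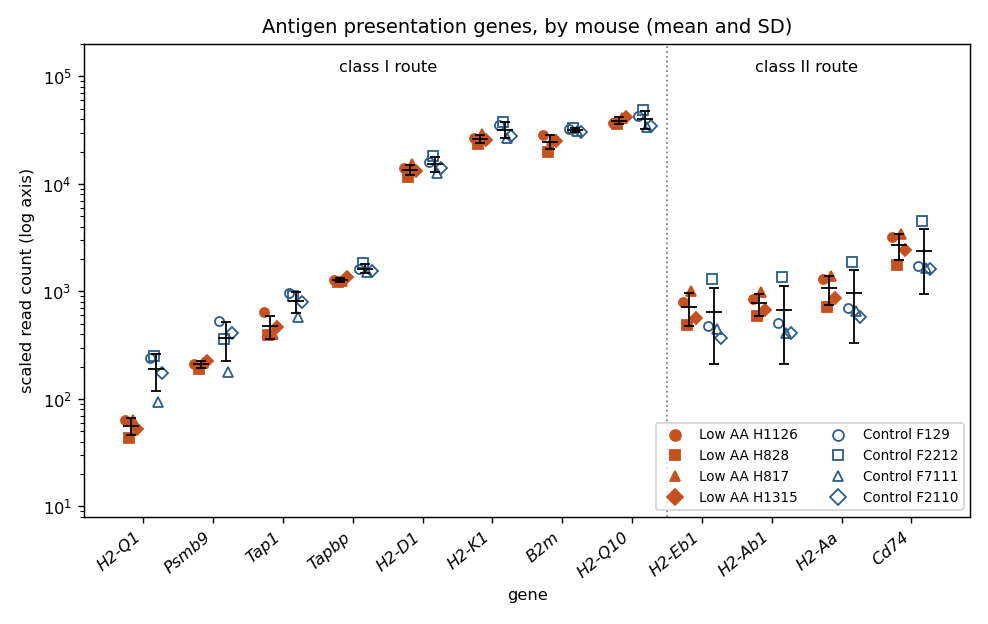
Values of selected antigen-presentation genes in each mouse (log10 axis, scaled read counts), with Low AA and Control mice as separate symbols and bars for the mean and SD of 4 mice. H2-Q1, Tapbp and B2m show no overlap between diets, and Control mouse F2212 lies far above the other Control mice in the class II genes.

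All 7 class II genes had a log2 fold change above 0, with a median of 0.28, and none had an unadjusted p under 0.05 in either direction or lacked overlap. Cd74, the invariant chain that guides class II molecules to endosomes, had values of 3171, 1771, 3433 and 2424 in Low AA and 1739, 4549, 1647 and 1629 in Control liver. Control mouse F2212 was the highest of all 8, and the other Control mice were below every Low AA mouse. The log2 fold change was 0.28 (95% CI -0.45 to 1.02, limma adjusted p = 0.807).

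The chains H2-Aa (0.29), H2-Ab1 (0.38) and H2-Eb1 (0.29) had the same arrangement of mice, with 1309, 717, 1385 and 862 against 707, 1887, 654 and 579 for H2-Aa. H2-DMa (0.23) and H2-DMb1 (0.21), which exchange the peptide on class II molecules, and H2-Ob (0.26), a chain of the inhibitor of that exchange, were also above 0. F2212 was the highest of the 8 mice for 7 of 7 genes. Without F2212 the median log2 fold change of the class II genes was 0.65, and without both F2212 and H828 it was 0.83. It was 0.45 without H828, and it was lower without F2110 (0.11), H817 (0.15) or F7111 (0.16). Ciita, the master regulator of class II transcription, had a log2 fold change of 0.03, and Nlrc5, its class I counterpart, of -0.27.

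A further 2 genes met the symbol rule but do not encode MHC molecules. H2-Ke6, a steroid dehydrogenase now named Hsd17b8, was at -0.28, and H2-Ke2, a prefoldin subunit now named Pfdn6, was at -0.04.

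The level of the interferon genes also differed between mice of the same diet. Averaged over the 50 genes relative to the Control mean, Low AA mice were at -0.08 (H1126), -0.79 (H828), -0.47 (H817) and -0.44 (H1315) on the log2 scale, and Control mice were at -0.04 (F129), 0.39 (F2212), -0.05 (F7111) and -0.30 (F2110). Low AA mouse H1126 therefore lay above Control mouse F2110, and the diets overlapped. H828 was the lowest of the 8 mice for 29 of the 50 genes, against 13.5% of all genes, and F2212 was the highest for 39 of the 50, against 20.3% of all genes. Both mice also lay at the ends of the acute phase list.

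Without F2212 the median log2 fold change of the interferon genes was -0.30, with 38 of 50 below 0 and 14 at an unadjusted p under 0.05. Without H828 the median was also -0.30, with 41 of 50 below 0 and 14 at that p. Without both, the median was -0.23, with 36 of 50 below 0 and 9 at that p, against 5.93% of all genes. The class I route was at -0.19, -0.60, -0.26 and -0.38 in Low AA mice (H1126, H828, H817 and H1315) and 0.16, 0.21, -0.35 and -0.02 in Control mice (F129, F2212, F7111 and F2110). In that route the low Control mouse was F7111, the lowest Control mouse for 18 of 23 genes, and not F2110.

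**Figure D4:**
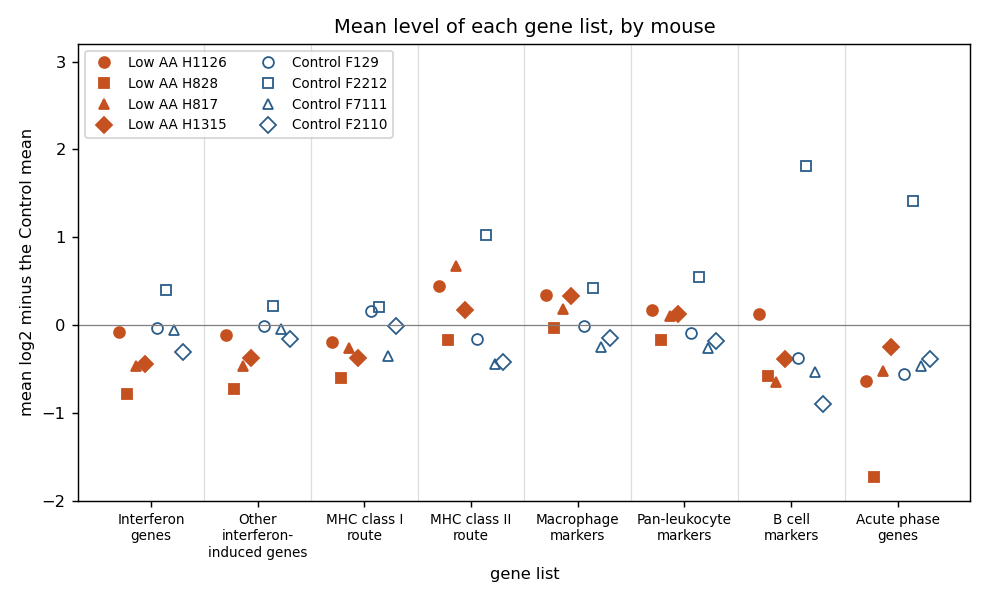
Mean log2 level of each gene list in each mouse relative to the Control mean (vertical axis), for the interferon, class I and class II genes, other interferon-induced genes, macrophage, pan-leukocyte and B cell markers and acute phase genes. Filled symbols are Low AA mice and open symbols Control mice; F2212 lies highest in all 8 lists plotted and H828 lowest in the interferon and class I lists.

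Of 53 interferon-induced genes whose symbols fall outside the rule, 51 were measured, 45 had a log2 fold change below 0 and the median was -0.36. None was called by limma, and 21 had an unadjusted p under 0.05 with lower values, against 6.7% of all genes. Values did not overlap for 10, all lower in Low AA liver, against 3.55% of all genes. Averaged over this list relative to the Control mean, H828 was the lowest mouse (-0.73) and F2212 the highest (0.22). Counts for this list without those mice are not reported here. Apol9b, an apolipoprotein L gene, had values of 981, 318, 658 and 1232 against 2663, 3811, 2726 and 1705, a log2 fold change of -1.88 (SE 0.38, limma adjusted p = 0.0793). Its near-identical neighbour Apol9a was at -1.92 (limma adjusted p = 0.104), so the reads of the pair may be shared.

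Mov10, an RNA helicase, had values of 256, 308, 213 and 341 against 589, 433, 700 and 480. The groups did not overlap, and the log2 fold change was -0.97 (SE 0.19, limma adjusted p = 0.0642). Xaf1 (-1.19, limma adjusted p = 0.0915), Gvin1 (-0.92), Ddx60 (-0.87), Rtp4 (-0.81), Parp12 (-0.56), Parp10 (-0.36) and Tdrd7 (-0.30) were the others without overlap. The antiviral genes Rsad2 and Mx1 overlapped between diets, with log2 fold changes of -0.79 (limma adjusted p = 0.446) and -0.53 (limma adjusted p = 0.678).

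Of 16 receptor, JAK kinase and SOCS genes listed, 14 were measured, none was called and the median was -0.03. Ifnar1 (-0.09), Ifnar2 (-0.18), Ifngr1 (0.20) and Jak1 (-0.04) had fold changes of modest size. Tyk2, the kinase bound to Ifnar1, had values of 373, 516, 382 and 425 against 560, 557, 586 and 578. The groups did not overlap, and the log2 fold change was -0.44 (SE 0.12, limma adjusted p = 0.160). Tyk2 was the only 1 of the 14 without overlap (7.14%), against 3.55% of all genes lower and 3.26% higher without overlap. Socs3, a feedback inhibitor of cytokine signaling, was at -0.48 (limma adjusted p = 0.668).

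Of 18 nucleic acid sensors and adaptors listed, 16 were measured, none was called and the median was -0.01. Of the 16, 3 had an unadjusted p under 0.05 with lower values, against 6.7% of all genes. Ifih1, which encodes the RNA sensor MDA5 and is induced by interferon, had values of 721, 507, 543 and 613 against 826, 753, 1038 and 906. The groups did not overlap, and the log2 fold change was -0.57 (SE 0.14, limma adjusted p = 0.131). Ifih1 was the only 1 of the 16 without overlap (6.25%), against 3.55% of all genes lower and 3.26% higher without overlap. Ddx58, which encodes RIG-I, was at -0.40 (limma adjusted p = 0.322). Of 28 further antigen-processing genes, all measured, 13 were below 0, none was called and the median was 0.01.

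Leukocyte markers were compared because blood and resident immune cells also express these genes. The macrophage list, 13 of 13 measured, summed to 13526 to 18373 in Low AA and 12723 to 19477 in Control liver, and 12 of its genes had a log2 fold change above 0. The pan-leukocyte list, 8 of 8 measured, summed to 3796 to 4058 in Low AA and 4230 to 5475 in Control liver. That separation came from Lcp1, an actin-bundling protein, with 1683, 2117, 1837 and 1926 against 2504, 2770, 3008 and 2728 (log2 fold change -0.54, limma adjusted p = 0.0611). The remaining genes of that list, Ptprc (0.33) among them, were above 0.

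B cell markers, 3 of 8 measured, summed to 75 to 134 in Low AA and 64 to 479 in Control liver, the highest being F2212, in which Igj had a value of 275, the remaining Control mice having 25 to 50. T and NK cell markers (2 of 15 measured) summed to 48 to 88 and 39 to 114, dendritic cell markers (2 of 9) to 173 to 229 and 140 to 216, and neutrophil markers (2 of 6) to 88 to 147 and 85 to 199, in Low AA and Control liver respectively. Defining genes of these cells such as Cd3e, Itgax and Ly6g were not among the genes listed and are not analysed here. Sinusoidal endothelial markers (9 of 9) summed to 10986 to 11971 and 9552 to 13264, and stellate markers (9 of 9) to 8532 to 10618 and 8024 to 10512. Cholangiocyte markers (4 of 6) summed to 826 to 1316 and 1124 to 2265, and erythroid markers (6 of 7) to 10093 to 14931 and 7768 to 30071. All 4 cholangiocyte markers had a log2 fold change below 0, with a median of -0.62. Of the 4, 2 had an unadjusted p under 0.05 with lower values, against 6.7% of all genes. Their mean was lowest in H828, at -1.10 relative to the Control mean. Of the erythroid markers, 5 of 6 were below 0 (median -0.49), and 3 reached that p with lower values, against the same 6.7%. The exception was Hbb-b2, at 2.31 (SE 1.73), with a value of 0 in Control mouse F129. Alas2, the heme synthesis enzyme of red cell precursors, was lower without overlap (-0.49, limma adjusted p = 0.266). It was 1 of 6 markers, against 3.55% of all genes. None of these markers was called. The part of these cell types in the differences above was not tested.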

How the data were processed

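Liver RNA was sequenced from 8 mice, 1 library each, grouped by the diet given in the labels. The authors deposited 1 signal per gene and library, which the values show to be whole numbers and which is taken here to be a scaled and rounded read count, so raw reads were not used and no count model was run. How they scaled it is not given in the sources used here. Also deposited were the authors' signed fold change (a score) and FDR (a q-value or adjusted p-value), which were not used. The submitters' processing notes name bcl2fastq 1.8.2, STAR 2.5.0a, RSEM 1.2.6, edgeR 3.10.5, R 3.2.1 and mm10.

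The diets were compared on log2(value + 1) by limma 3.58.1, run in R 4.3.3 with its prior variance following mean expression, and p-values were adjusted by Benjamini-Hochberg across 11784 genes; fold changes on this scale understate those of low genes. The fit was tested on simulated data. Single sums were compared by exact two-sided permutation tests, whose smallest p for 4 against 4 is 0.0286. P-values measure the spread between mice. Tables were made with pandas 2.3.3 and figures with matplotlib 3.10.9 in Python 3.11.15.

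Genes named with values were those called, those without overlap between diets, the 5 largest rises and falls, and a set of reference genes; the other genes were named to account for the 82, after their values were seen. Some genes of the set and lists enter the counts and medians but are not reported here by name. The genes and lists (pathway genes, cell type markers and acute phase genes) were chosen with earlier results of these data known. Older symbols were matched to current ones. Levels per kilobase used the longest protein-coding GENCODE M21 transcript, and gene coordinates came from that annotation. Alternatives were a pseudocount of 0.1, a pseudocount of 5, restriction to the 8000 most highly expressed genes, equal column totals, equal upper quartiles, robust moderation, no trend, leaving out each mouse, and, chosen after seeing the data, leaving out F2212 and H828 together.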

Additional observations from a re-analysis of the deposited data

Results flagged for a closer look

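In groups of 4 mice, a mouse was picked out when its gap to the nearest other mouse, divided by the range of the group, exceeded Dixon's critical value at the 95% level. Chance picks out about 1 in 20 groups, and 7 of the 118 groups examined were picked out. Control mouse F2212 accounted for 5 of them. Its log2(value + 1) was 12.15 for Cd74, where the remaining Control mice had 10.67 to 10.76, and 10.88 for H2-Aa, against 9.18 to 9.47. Its mean log2 level relative to the Control mean was 0.91 for the neutrophil markers (others -0.37 to -0.24), 1.41 for the acute phase genes (others -0.56 to -0.39) and 5.89 for Cela1, the exocrine pancreas marker (others -2.23 to -1.78). The neutrophil value came from S100a9, at 130 in F2212 against 19 to 30 in the remaining Control mice. Csf3r, the other neutrophil marker measured, was at 69 in F2212, inside their range of 55 to 77. Low AA mouse H1126 was high for Gbp10, at 6.52 against 5.17 to 5.39, and for the erythroid markers, at 0.21 against -0.28 to -0.23. The Control mean of the erythroid list was lowered by Hbb-b2, which had a value of 0 in Control mouse F129. The erythroid sum of H1126, 14931, lay inside the Control range of 7768 to 30071.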

How the results depend on the processing

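No paired analysis was possible because the mouse codes are not shared between the diets. Over all genes, 47 were called, against 19 among the 8000 genes with the highest mean, 30 without a mean-variance trend and 16 to 77 when 1 mouse was left out (21 without H1126, 19 without H828, 16 without H817, 29 without F129 and 77 without F2212). Of the 82 genes, the 1 called (H2-Q1) became 0 among the 8000 genes, which do not include it, 0 with equal upper quartiles and 0 without a trend. Leaving out 1 mouse gave 0 to 2, the 2 being H2-Q1 and Psmb9 without Control mouse F7111, and leaving out F2212 and H828 together, chosen after seeing the data, gave 0. Genes without overlap numbered 7, and 7 to 27 when 1 mouse was left out: 27 without H1126, 21 without F2110, 15 without F7111 and 12 without F2212, the all-gene shares being 9.38%, 10.2%, 12.2% and 11.7% in either direction, against 6.81% with all mice. Without F2212 and H828 together they numbered 16, against 17.9% of all genes. The median log2 fold change ranged from -0.51 to -0.30 for the interferon genes and from -0.32 to -0.11 (without F2212) for the antigen-presentation genes, whose value was -0.24, when 1 mouse was left out. Without F2212 and H828 together, the median of the antigen-presentation genes was -0.09. Ifit3 was then at -0.23, Usp18 at -0.25, Irf1 at -0.03, H2-D1 at -0.01 and H2-T23 at -0.02. The sign turned for H2-Q10 without H828 (0.0054), without F129 (0.0041), without F2212 (0.074) and without F2212 and H828 (0.11), for Gbp2 without F2212 (0.015) and without F2212 and H828 (0.082), and for H2-Ob without F7111 (-0.011). With 1 mouse left out, Gbp2 ranged from -0.38 to 0.015 and H2-Ob from -0.011 to 0.52. Of 599 comparisons over 38 named genes, 581 kept their direction and side of the threshold, and 35 of the 38 genes kept their sign throughout. The causes were not tested. The planned count-model alternatives were not run, because the values are not raw counts. With 4 mice per diet, low genes such as Oas1c and H2-Ob are measured with few reads.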
